A study of Mus musculus with 2 samples.

Results

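The IL-1 family of secreted ligands, their natural antagonist and their receptors was followed in regulatory T (Treg) cells of mice lacking miR-125a. The 10 genes were Il1a, Il1b, Il18 and Il33 (ligands), Il1rn (antagonist), Il1r1, Il1rap, Il1rl1 and Il18r1 (signalling receptors) and Il1r2 (decoy receptor). They were chosen by family membership with the log2 ratios of these same 2 arrays already known, and every probe set whose annotated gene is one of them was taken. This gave 16 probe sets for 9 of the 10 genes, of 34945 probe sets that name 1 gene. Il1rl1 was named by none of the probe sets used here and was not analysed here. The miR-125a-deficient sample was a pool of equal amounts of RNA from several miR-125a KO mice, and the wild-type sample was a pool made in the same way from their littermates. All mice were 6 to 8 weeks old, and the number per pool, the strain and the design of the deletion are not given in the sources used here. CD4 T cells were enriched from spleen with magnetic beads, and CD4+CD25hi cells were sorted from them. Each pool was read on 1 Affymetrix Mouse Genome 430 2.0 array, a 1-colour array of short oligonucleotides. There is therefore no replicate and no test between genotypes. All ratios below compare the 2 pools, and they are given as descriptions because the members were chosen with this same contrast in view.

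IL-1alpha and IL-1beta bind the receptor IL1R1, which then recruits the accessory chain IL1RAP and signals through the adaptor MyD88 and the IRAK kinases to NF-kappaB. The antagonist encoded by Il1rn occupies the same receptor without recruiting the accessory chain, and the decoy receptor IL1R2 binds IL-1 without signalling. IL-18 and IL-33 use related receptors, IL18R1 and ST2 (the product of Il1rl1), and IL-33 can expand Treg cells in mouse tissues. Activated Treg cells are known to display the decoy receptor.

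MicroRNAs recognise their targets mainly through the seed, which is bases 2 to 8. The deleted microRNA shares its seed with 4 other mature mouse microRNAs in RefSeq (build GRCm38.p6), and all 5 are shown, with the seed in capitals, because the sequence missing from these cells is not the only carrier of this seed in the genome. The complement of the seed that a target would carry is CUCAGGG.
mmu-miR-125a-5p: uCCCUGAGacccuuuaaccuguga
mmu-miR-125b-5p: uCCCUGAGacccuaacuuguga
mmu-miR-351-5p: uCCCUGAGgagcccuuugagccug
mmu-miR-6367: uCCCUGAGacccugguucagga
mmu-miR-6394: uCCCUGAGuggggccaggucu
The levels of these microRNAs were not analysed here. The miR-125a-5p sequence lies at chr17:17830817-17830840 on the plus strand.

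Signals are MAS5 values on a linear scale. To form a log2 ratio, a pseudocount of 16.3, the 25th percentile of all signals, was added to each signal, and the miR-125a-deficient sum was divided by that of wild type. Adding it shrinks the ratios of dim probe sets. A probe set passed the signal minimum when the mean of its 2 signals was at least 62.5, the median over all probe sets. Of the 16 member probe sets, 8 passed and 8 did not. Those that passed measured Il1rn, Il1a, Il1b, Il1r2, Il1rap and Il18r1. Il1r1, Il18 and Il33 were below the minimum on every probe set. The value called "probe-set SD" is the typical SD of the log2 ratio between probe sets of 1 gene at that signal, estimated on 5030 genes that had 2 or more such probe sets. It ranged from 0.16 at the brightest to 0.38 at the dimmest signals. It does not cover variation between mice.

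The sorted cells carried transcripts of Treg marker genes. Because the sort was for CD4+CD25hi cells, a high signal of the CD25 gene follows from it and is no separate evidence of identity. Il2ra, which encodes CD25, had a signal of 18551 in the miR-125a-deficient pool and 15390 in the wild-type pool, and the inhibitory receptor gene Ctla4 had 16803 in the miR-125a-deficient pool and 16623 in the wild-type pool. Foxp3, the master regulator of the lineage, was lower at 694 in the miR-125a-deficient pool, against 1631 in the wild-type pool, a log2 ratio of -1.21. Ikzf2, typical of thymus-derived Treg cells, had log2 ratios of 0.45 and 0.25 on its 2 probe sets past the minimum, Cd4 had -0.15 and -0.18, and Cd3e had -0.41. The median log2 ratio of all 19229 probe sets past the minimum that name 1 gene was -0.02.

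The antagonist gene Il1rn was the member with the highest ratios among those past the minimum, and all 3 of its probe sets gave the larger signal in the miR-125a-deficient pool. Probe set 1451798_at had a signal of 2058 in the miR-125a-deficient pool and 777 in the wild-type pool. Its log2 ratio was 1.39, a 2.61-fold difference on that scale, with a probe-set SD of 0.20. Probe set 1425663_at had 399.9 in the miR-125a-deficient pool and 171 in the wild-type pool, a log2 ratio of 1.15 (probe-set SD 0.32). The remaining probe set, 1423017_a_at, had 908 in the miR-125a-deficient pool and 456 in the wild-type pool and stood just short of 2-fold, at a log2 ratio of 0.97 (probe-set SD 0.24). Over the 3 probe sets the mean log2 ratio was 1.17 ± 0.21 (SD over probe sets of 1 gene, which are not replicates of the genotype). Both 1451798_at and 1425663_at were designed from the same transcript record, so they read overlapping evidence. Each of the 3 ratios was more than 3 times its probe-set SD. That SD measures scatter between probe sets and not variation between mice or pools, so this is no test between genotypes.

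In all, 2 of 8 member probe sets were at least 2-fold higher, where 1.03% of the 19229 probe sets were, and 0 were at least 2-fold lower, where 1.38% were. Both of the 2 belong to Il1rn, so the count is that of a single gene. A ratio as high as that of 1451798_at was held by 0.437% of all probe sets past the minimum, and one as high as that of 1423017_a_at by 1.16%.

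**Figure D1:**
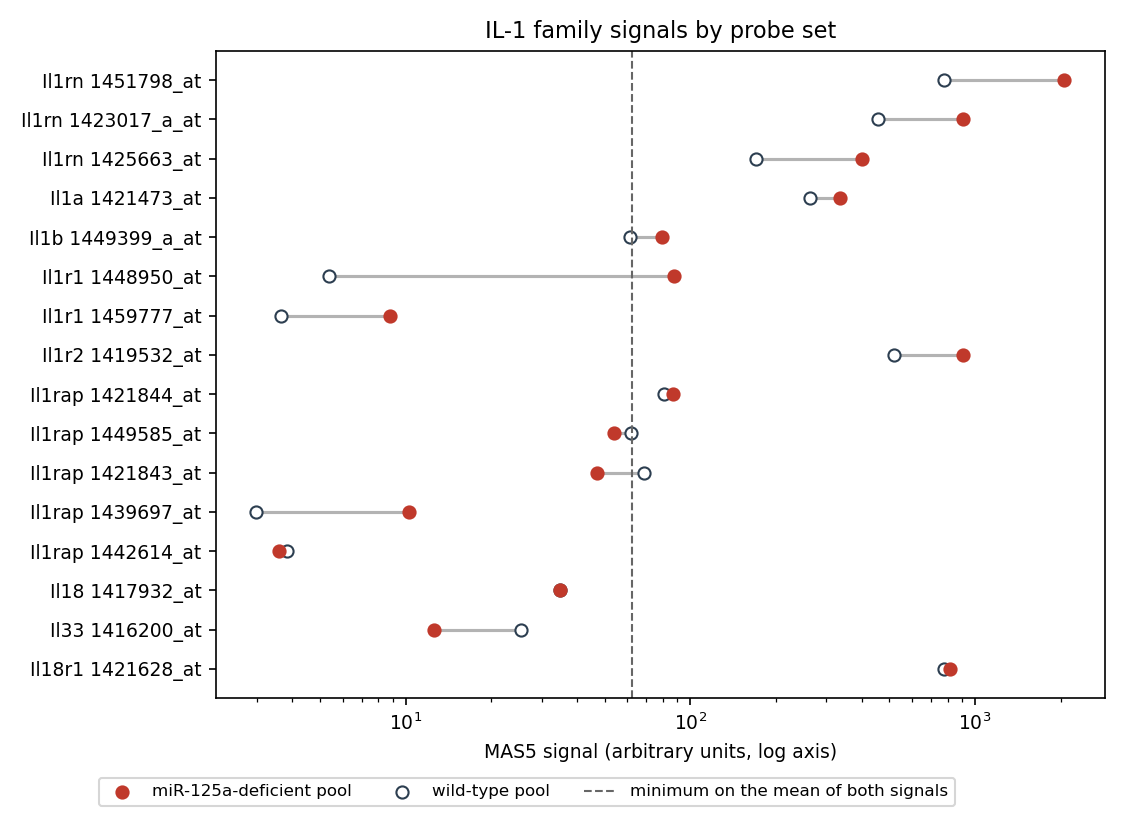
MAS5 signal (log axis) of the 16 IL-1 family probe sets in the miR-125a-deficient pool (filled) and the wild-type pool (open), 1 array each; the dashed line is the signal minimum of 62.5, which applies to the mean of both signals. The 3 Il1rn probe sets and that of Il1r2 lie to the right of the line with the filled point higher, while the points of Il18 and Il18r1 nearly coincide.

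The decoy receptor gene Il1r2 came next. Its probe set had a signal of 905 in the miR-125a-deficient pool and 521 in the wild-type pool, a log2 ratio of 0.78 (probe-set SD 0.24), or 1.72-fold on that scale. It lay under 2-fold, and 2.21% of all probe sets past the minimum had a ratio as high. Among the 10 genes, the antagonist and the decoy were thus the members above 1.5-fold past the minimum.

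The agonist ligands differed less. Il1a had a signal of 335 in the miR-125a-deficient pool and 264 in the wild-type pool, so its log2 ratio was 0.33, which is about the size of its probe-set SD of 0.32. Il1b was near the minimum, at 79.5 in the miR-125a-deficient pool and 61.5 in the wild-type pool, and its log2 ratio of 0.30 was smaller than its probe-set SD of 0.38. The wild-type signal of Il1b was itself under the minimum, so this gene passed through its miR-125a-deficient signal. The log2 ratio of Il1rn exceeded that of Il1a by 0.64 to 1.06 and that of Il1b by 0.67 to 1.09, depending on the Il1rn probe set. It exceeded that of Il1r2 by 0.19 to 0.61.

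Il18 and Il33 were dim in both pools. Il18, the ligand of IL18R1, had nearly identical signals of 34.9 in the miR-125a-deficient pool and 34.9 in the wild-type pool. Il33, an alarmin made mainly by stromal and epithelial cells, had 12.6 in the miR-125a-deficient pool and 25.4 in the wild-type pool, both far below the minimum, so no fold is drawn from them.

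Among the signalling receptors, Il18r1 was well above the minimum and nearly level. Its signal was 815 in the miR-125a-deficient pool and 779 in the wild-type pool, a log2 ratio of 0.06 (probe-set SD 0.24). Il1rap, the accessory chain shared by the receptors for IL-1 and IL-33, had 5 probe sets, of which 1 passed the minimum. That probe set, 1421844_at, had 86.6 in the miR-125a-deficient pool and 80.7 in the wild-type pool, a log2 ratio of 0.08 (probe-set SD 0.38). Just below the minimum, 1449585_at had 53.8 in the miR-125a-deficient pool and 62.0 in the wild-type pool, and 1421843_at had 46.8 in the miR-125a-deficient pool and 68.5 in the wild-type pool. The 3 brightest Il1rap probe sets therefore did not all point the same way. The other 2 were at or under 10.3 in both pools.

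Il1r1, the receptor through which IL-1 signals, had the widest gap of all members on 1 of its 2 probe sets, but at low signal. Probe set 1448950_at had 87.3 in the miR-125a-deficient pool and 5.40 in the wild-type pool. The wild-type value is under the pseudocount, and the log2 ratio of 2.25 depends on it: it was 3.79 with a pseudocount of 1 and 1.13 with one at the median signal. The mean of both signals, 46.3, was below the minimum, so Il1r1 is not in the counts above. The other probe set, 1459777_at, had 8.81 in the miR-125a-deficient pool and 3.66 in the wild-type pool. The higher signal of Il1r1 thus rests on 1 dim probe set.

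**Figure D2:**
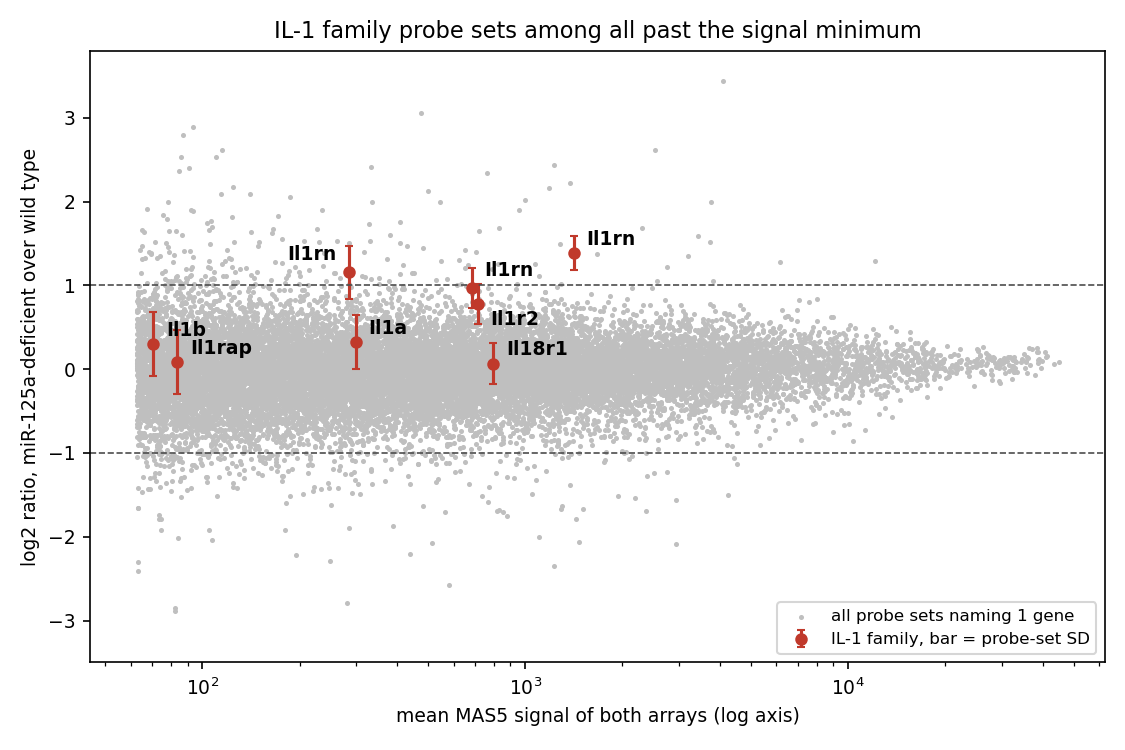
Log2 ratio of the miR-125a-deficient over the wild-type pool against mean MAS5 signal (log axis) for the 19229 probe sets past the minimum (grey) and the 8 of the IL-1 family (red, bars are the probe-set SD); dashed lines mark 2-fold. The 3 Il1rn points and that of Il1r2 lie along the upper edge of the cloud, and those of Il1a, Il1b, Il1rap and Il18r1 lie within it.

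Over the 8 member probe sets past the minimum, all 8 had a log2 ratio above 0, and the median was 0.55. Of all probe sets past the minimum, 47.5% had a ratio above 0. The 3 probe sets of Il1rn weigh heavily in that median: with only the brightest probe set of each of the 6 genes it was 0.31. Il1b is among the 8 although it passed through its miR-125a-deficient signal alone, which favours a ratio above 0, so the count of 8 supports nothing by itself. For 4 of these genes the ratio was about its probe-set SD or smaller.

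Neighbouring receptor genes had different ratios. In the RefSeq gene order, Il1r2, Il1r1, Il1rl2, Il1rl1, Il18r1 and Il18rap follow each other on chromosome 1 with no other protein-coding gene between them. Within this block the log2 ratio was 0.78 for Il1r2 at its start, next to the dim Il1r1 described above, and 0.06 for Il18r1 and 0.12 for Il18rap at its end. Il1rl2, the receptor for the IL-36 cytokines, was below the minimum, at 54.5 in the miR-125a-deficient pool and 40.3 in the wild-type pool on its brighter probe set. Il1rn lies on chromosome 2 beside Il1f10, a gene of the same family, which was dim and went the other way, at 71.5 in the miR-125a-deficient pool and 102 in the wild-type pool (log2 ratio -0.42). Il1a and Il1b are neighbours elsewhere on chromosome 2.

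Il1rn has 3 annotated starts, and the windows of 2 of them are printed here, with that of Il1r2, because these are the members with the highest ratios past the minimum. Each line gives the 250 bases before a RefSeq start (GRCm38.p6, plus strand), and capitals mark matches on either strand to 4 motifs: AGATAA for GATA factors, TGANTCA for AP-1, and the consensus sites of STAT6 and NF-kappaB.
Il1rn, upstream start, chr2:24336610-24336859: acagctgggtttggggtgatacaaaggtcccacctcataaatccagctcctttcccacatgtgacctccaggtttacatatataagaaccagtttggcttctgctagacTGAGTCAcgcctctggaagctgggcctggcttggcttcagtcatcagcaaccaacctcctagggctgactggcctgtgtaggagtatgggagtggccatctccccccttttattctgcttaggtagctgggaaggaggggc
Il1rn, middle start, chr2:24345041-24345290: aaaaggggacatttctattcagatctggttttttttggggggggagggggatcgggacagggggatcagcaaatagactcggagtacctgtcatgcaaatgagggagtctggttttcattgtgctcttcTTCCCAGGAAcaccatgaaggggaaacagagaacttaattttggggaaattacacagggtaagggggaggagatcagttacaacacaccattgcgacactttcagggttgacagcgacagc
Il1r2, chr1:40085843-40086092: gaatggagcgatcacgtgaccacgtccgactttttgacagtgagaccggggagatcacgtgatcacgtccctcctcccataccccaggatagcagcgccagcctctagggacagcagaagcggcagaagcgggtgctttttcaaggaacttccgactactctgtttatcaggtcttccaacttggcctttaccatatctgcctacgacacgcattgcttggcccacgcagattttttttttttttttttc
The upstream Il1rn window holds 1 AP-1 match, from base -141 to -135 relative to the start, and the middle window 1 STAT6 match, from -121 to -112. The window of the most downstream start, chr2:24345121-24345370, overlaps the middle one and is not printed. It holds the same STAT6 letters, from -201 to -192. The Il1r2 window holds none of the 4. Among 32536 windows of the same length, 6.73% hold a match for AP-1, 2.31% for STAT6, 9.97% for GATA factors and 3.92% for NF-kappaB. A match describes the letters only. Other members hold matches too. Il1a, with a log2 ratio of 0.33, has an AP-1 match from -12 to -6. Il18 and Il33, both below the minimum, have a STAT6 match each, and Il1r1 has an NF-kappaB match. Il1rl1, which had no probe set, has a GATA match in each of its windows, from -217 to -212 and from -103 to -98.

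The genes whose signals on the 2 arrays were nearest to those of Il1rn probe set 1451798_at were Gata3, Frmd4b and Trip13, at distances of 0.049, 0.25 and 0.28 on the log2 scale. Gata3, the transcription factor that directs type 2 helper T cells, had 2016 in the miR-125a-deficient pool and 756 in the wild-type pool. The log2 ratios were 1.40 for Gata3, 1.49 for Frmd4b and 1.02 for Trip13. These genes were picked by the same 2 signals that form the ratio, so ratios near that of Il1rn follow from the choice. This likeness rests on 2 values, and signal levels of different probe sets also depend on how well each binds its target.

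The remaining family members and the pathway around the receptors were examined as 3 lists with 46 genes in all, of which 36 had a probe set and 27 passed the minimum on at least 1. Of their 54 probe sets past the minimum, 1 was at least 2-fold higher and 0 were at least 2-fold lower, against 1.03% and 1.38% of all probe sets. The median log2 ratio was -0.17.

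The 1 was Casp1, which encodes the protease that cuts the precursors of IL-1beta and IL-18 into active cytokines. Its probe set had 125 in the miR-125a-deficient pool and 38.8 in the wild-type pool, a log2 ratio of 1.36 with a probe-set SD of 0.38. Since its wild-type signal lay below the minimum, Casp1 passed through its miR-125a-deficient signal alone, which favours a ratio above 0. It was under 2-fold with a pseudocount at the median signal. The other ligand maturation genes past the minimum were closer to level, from Gsdmd, the pore through which IL-1beta leaves the cell, at 0.46, to Casp8 at -0.23. Pycard, the adaptor that brings caspase-1 to inflammasomes, had 3429 in the miR-125a-deficient pool and 3941 in the wild-type pool on its brightest probe set. Nlrp3, an inflammasome sensor, was below the minimum, at 55.5 in the miR-125a-deficient pool and 29.4 in the wild-type pool. Over the 10 probe sets of the maturation list the median log2 ratio was 0.04.

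In the signalling list shared by the receptors, no probe set reached 2-fold, but 31 of the 40 past the minimum had a ratio below 0, and the median was -0.26, where 52.5% of all probe sets were below 0. The 40 came from 14 genes, and with the brightest probe set of each, 12 of 14 were below 0 with a median of -0.20. After quantile or loess scaling 29 of the 40 were below 0. The lowest ratio was that of Peli2, an E3 ligase that acts with IRAK kinases, at -0.81. Its probe set had only 43.8 in the miR-125a-deficient pool and 88.8 in the wild-type pool. It passed through its wild-type signal alone, which favours a ratio below 0. The highest, 0.78, belonged to 1449693_at, a probe set of the kinase gene Map3k7 whose 4 others past the minimum lay between -0.64 and -0.04, so the probe sets of that gene disagreed. The other signalling genes below were named after their values were seen. All 4 probe sets past the minimum of Traf6, the ubiquitin ligase downstream of the IRAK kinases, had ratios from -0.75 to -0.25, and all 5 of Peli1 had ratios from -0.70 to -0.20. Nfkbiz, which is induced by IL-1 signalling, had 1253 in the miR-125a-deficient pool and 1989 in the wild-type pool on its brightest probe set, a log2 ratio of -0.66, with its others at -0.69 and -0.06. Irak2 had -0.54. Myd88, the adaptor, was level at 0.04, and both probe sets of Tollip, an inhibitor of the pathway, were above 0, at 0.11 and 0.46. Irak1 was above 0 on 2 of its 4 probe sets past the minimum, between -0.43 and 0.15. Ikbkg was above 0 on 2 of 6, between -0.53 and 0.05, and Ikbkb on 1 of 4, between -0.32 and 0.39.

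Of the other family genes, 4 passed the minimum. Sigirr, an inhibitory orphan receptor of the family, had 3926 in the miR-125a-deficient pool and 4200 in the wild-type pool, a log2 ratio of -0.10. Il18bp, a secreted protein that neutralises IL-18, was dim, at 96.8 in the miR-125a-deficient pool and 71.4 in the wild-type pool, with a log2 ratio of 0.37. Il18rap, the accessory chain of the IL-18 receptor, stood at 161 in the miR-125a-deficient pool and 148 in the wild-type pool. The inhibitors therefore did not all share the higher signal of Il1rn.

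**Figure D3:**
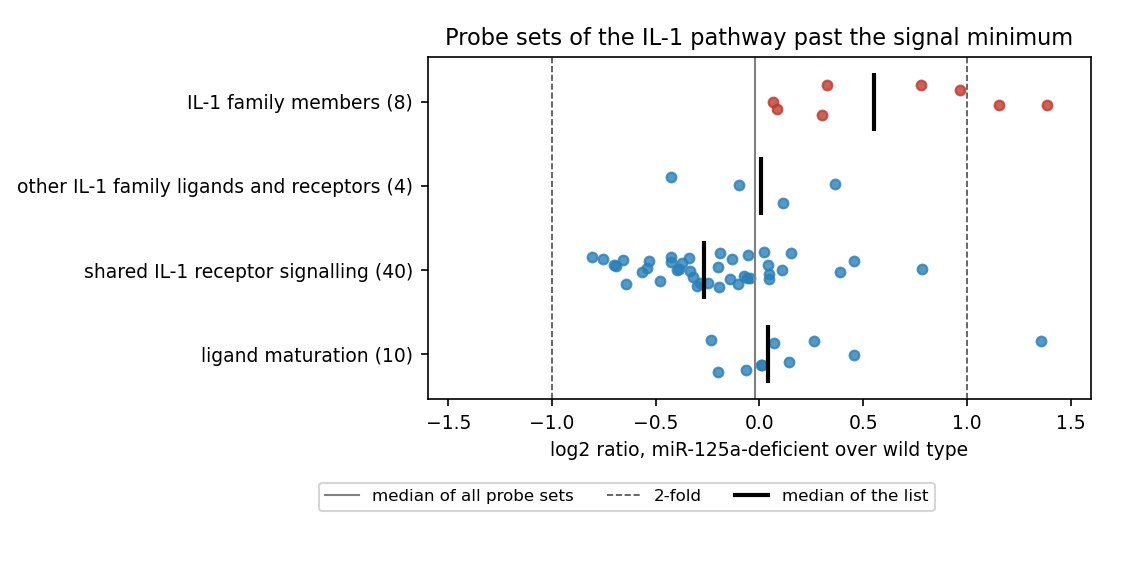
Log2 ratios of the miR-125a-deficient over the wild-type pool for probe sets past the minimum, 1 point each, in the member genes and 3 pathway lists (number of probe sets in brackets); black bars are list medians, the grey line is the median of all probe sets at -0.02 and dashed lines mark 2-fold. The signalling list sits mostly left of the grey line with a median of -0.26, and Casp1 is the single blue point beyond 2-fold.

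Myeloid cells, mast cells and stromal cells are known sources of IL-1 family transcripts, so their markers were measured beside these results. In bulk RNA, fewer cells of a type and less RNA per cell cannot be told apart. The myeloid list (macrophages, monocytes and dendritic cells) had 20 measured markers, of which 4 passed the minimum. All 4 were lower in the miR-125a-deficient pool, with log2 ratios of -0.30 for Csf1r, -0.59 for Itgax, -0.81 for Cd68 and -1.02 for Fcer1g. Each had a probe-set SD of 0.38, so the ratio of Csf1r was smaller than its SD. Of all probe sets past the minimum, 52.5% were below 0. Itgax, at 47.6 in the miR-125a-deficient pool and 79.7 in the wild-type pool, passed through its wild-type signal alone, which favours a ratio below 0. The summed signal of this list was 770 in the miR-125a-deficient pool and 1036 in the wild-type pool. Its markers Cd14, at 13.5 in the miR-125a-deficient pool and 14.2 in the wild-type pool, and Adgre1, at 36.8 in the miR-125a-deficient pool and 44.7 in the wild-type pool, were below the minimum. Lyz1, also below the minimum on its means, went the other way on all 3 probe sets, with 65.7 in the miR-125a-deficient pool and 3.70 in the wild-type pool on the brightest. Other markers below the minimum went in both directions. Lyz2, at 61.0 in the miR-125a-deficient pool and 30.8 in the wild-type pool, was higher, as was Tyrobp. Fcgr1, at 15.1 in the miR-125a-deficient pool and 73.1 in the wild-type pool on its brighter probe set, was lower, as was Fcgr3.

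None of 11 measured neutrophil markers passed the minimum, and their summed signal was 195 in the miR-125a-deficient pool and 326 in the wild-type pool. Of 11 basophil and mast cell markers, 4 passed. Kit, the stem cell factor receptor, was lower on both probe sets, at -1.13 and -1.29. The dimmer Kit probe set, at 34.4 in the miR-125a-deficient pool and 107 in the wild-type pool, passed through its wild-type signal alone. Cpa3 was at -0.49, Fcer1a at -0.03 and Gata2 at 0.44, and the sum was 929 in the miR-125a-deficient pool and 1288 in the wild-type pool. The 8 stromal and endothelial markers summed to 585 in the miR-125a-deficient pool and 768 in the wild-type pool. Most of this was Pecam1, an endothelial adhesion gene and the only one past the minimum, at a log2 ratio of -0.45, and without it the sums were 134 in the miR-125a-deficient pool and 145 in the wild-type pool. Of 7 B cell markers, Cd22 and Cd79b passed, at 0.31 and -0.14, and Cd22 passed through its miR-125a-deficient signal alone. Of 7 CD8 T and NK cell markers 6 passed, and 8 of their 11 probe sets were below 0. Among these, the dimmest Cd8a probe set passed through its wild-type signal alone. Klrd1 was lowest at -0.64 and Klra7 highest at 0.92, with Cd8a at -0.54, Cd8b1 at -0.38, Eomes at -0.33 and Klre1 at 0.58 on their brightest probe sets. In none of these lists was the brightest probe set of a gene at the floor of 1. Of the 20 genes in the myeloid sum, 16 were below the minimum in the miR-125a-deficient pool and 14 in the wild-type pool. The lower mast cell sum rests on Kit, since without it the sum was 644 in the miR-125a-deficient pool and 646 in the wild-type pool. Of the 11 neutrophil genes, 11 were below the minimum in the miR-125a-deficient pool and 10 in the wild-type pool. The exception was S100a8, at 8.22 in the miR-125a-deficient pool and 69.6 in the wild-type pool. S100a9 was lower too, at 4.87 in the miR-125a-deficient pool and 43.0 in the wild-type pool. Other neutrophil markers went in both directions, and Camp was higher, at 23.6 in the miR-125a-deficient pool and 8.29 in the wild-type pool. Whether other cells contribute to the Il1rn or Il1r2 signal was not tested.

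The member ratios changed little with the scaling of the arrays. With 3 other scalings and 2 other pseudocounts, the ratio of 1451798_at stayed between 1.34 and 1.43, that of Il1r2 between 0.73 and 0.82 and that of Il18r1 between 0.06 and 0.10. The probe set nearest to the 2-fold line, 1423017_a_at, crossed it after each of the 3 other scalings, where its log2 ratio reached up to 1.01, and 1425663_at fell under it with the pseudocount at the median signal, at 0.99.

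**Figure D4:**
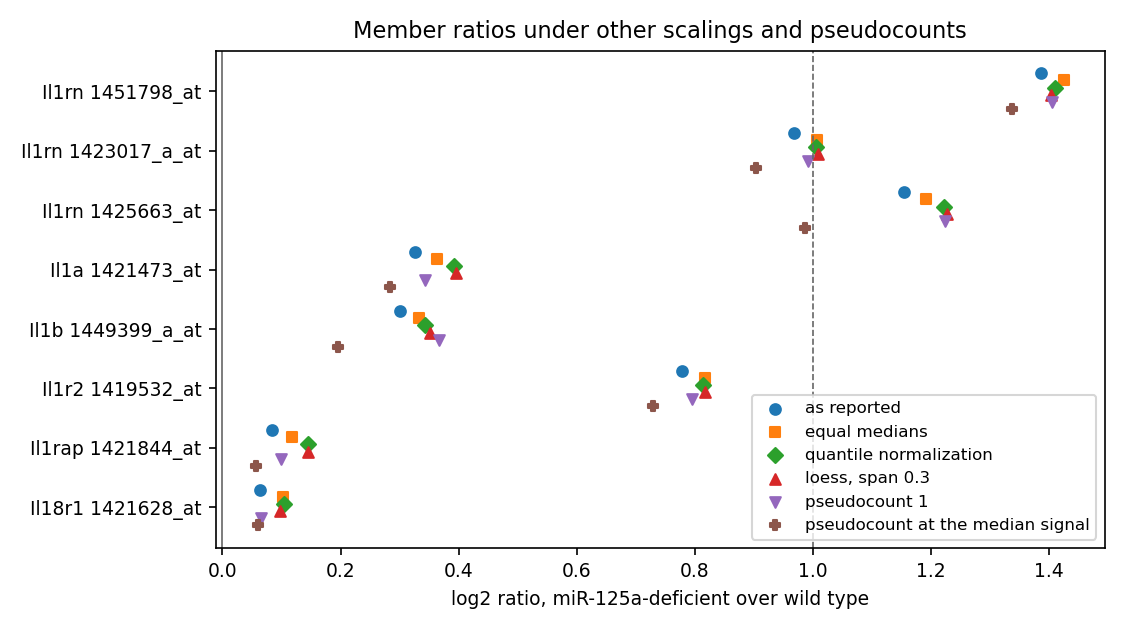
Log2 ratio of the miR-125a-deficient over the wild-type pool for the 8 member probe sets past the minimum as reported and under 3 other scalings and 2 other pseudocounts (symbols); the dashed line marks 2-fold. All 8 stay right of 0, and 1423017_a_at and 1425663_at cross the dashed line with the setting.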

How the data were processed

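The authors deposited log2 values for 45101 probe sets on 2 arrays, and MAS5 is the tool named per the submitters' processing notes, with no version. Turned back to a linear scale, the 2% trimmed mean was 500.0 on both arrays. The lowest log2 value was 0, held by 473 probe sets of the miR-125a-deficient array and 552 of the wild-type array. Detection calls were not used here, so a dim signal could not be told from background, and 1 array per genotype limits the precision. The analysis assigned genes from the platform annotation, found identifiers of 34741 probe sets in the RefSeq gene table (GRCm38.p6) and computed ratios in Python 3.11.15 with numpy 2.4.6, pandas 2.3.3 and statsmodels 0.14.6 (loess). The ratio and the probe-set SD were tested on simulated data. Each probe set was kept separate. The named genes were all members, the highest, lowest and 2-fold genes of each pathway list, 6 Treg markers, markers past the minimum and the 3 genes nearest to Il1rn. Other pathway genes (Traf6, Peli1, Nfkbiz, Irak1, Irak2, Ikbkg, Ikbkb, Myd88, Tollip, Pycard, Nlrp3, Sigirr, Il18rap and Il1rl2) were chosen after their values were seen. So were the markers Cd14, Adgre1, Lyz1, Lyz2, Tyrobp, Fcgr1, Fcgr3, S100a8, S100a9 and Camp and the sums without Kit or Pecam1. The members and lists were chosen with earlier results of these data known. Alternatives were 3 scalings, 2 pseudocounts, 3 filters, 2 folds and dropping the probe sets with IDs that mark possible matches to more than 1 transcript. Sequences are from RefSeq.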

Additional observations from a re-analysis of the deposited data

How the results depend on the processing

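All 40 comparisons of a member ratio with its value under 5 other scalings or pseudocounts moved by less than 1 probe-set SD, and 0 changed sign. The count of member probe sets at least 2-fold higher, 2 of 8 as reported, was 3 after each other scaling (with 1423017_a_at of Il1rn). Of all probe sets, 230 of 19230 were higher after equal medians, 245 of 19233 after quantile and 248 of 19229 after loess scaling. With no filter the member count was 3 of 16, where 1491 of 34945 were higher. With the minimum set on the higher of both signals it was 3 of 10, where 384 of 20230 were. Both add Il1r1, which in the latter passed through its miR-125a-deficient signal alone. The member count was 1 of 8 with a pseudocount at the median signal, where 95 of 19229 were higher. It was 1 of 4 with the minimum at the 75th percentile, where 45 of 10183 were. At 1.5-fold it was 4 of 8, where 908 of 19229 were, and at 3-fold 0, where 54 were. The count of lower member probe sets was 0 in all 11 settings. For the pathway lists, the count of higher probe sets was 1 as reported. It was 0 with a pseudocount at the median signal, with the minimum at the 75th percentile and at 3-fold. With no filter it was 2 of 77, where 1491 of 34945 were higher, and at 1.5-fold 2 of 54, where 908 of 19229 were. The count of lower ones, 0 as reported, was 1 of 54 with a pseudocount of 1, where 372 of 19229 were lower. With no filter it was 1 of 77, where 1187 of 34945 were. Both counts were of Peli2 but on different probe sets, 1436966_at with a pseudocount of 1 and 1419006_s_at with no filter. The latter was below the minimum, at 9.29 in the miR-125a-deficient pool and 44.9 in the wild-type pool. At 1.5-fold it was 6 of 54, where 1375 of 19229 were. Stricter filters and folds lower these counts by construction. No paired analysis was possible because each genotype has 1 array. Signal limits Il1r1, Il18, Il33, Il1b, Il1rap and Casp1, which lay near or below the minimum in at least 1 pool.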
